A study of Homo sapiens with 6 samples.

Results

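Integrin subunits were described in hTert-HME1 cells, human mammary epithelium made immortal by telomerase, whose polyadenylated RNA was sequenced in 6 libraries. The members are 10 genes chosen by symbol: ITGA2, ITGA3, ITGA5, ITGA6, ITGA10, ITGAV, ITGB1, ITGB4, ITGB6 and ITGB8. All 10 were found among the 57820 gene rows of the deposited table, and all 10 passed the filter on low values with 14763 genes in all. The cells had received an siRNA against BRCA2 (labelled BRCA2-2) or a control siRNA (labelled control-1). They recovered, and were then kept in a mammary epithelial medium that held EGF, a growth factor for epithelial cells, or lacked it. BRCA2 siRNA without EGF has 2 libraries (replicates A and B, passage 6), BRCA2 siRNA with EGF has 1 (replicate P4, passage 4), and control siRNA with EGF has 3 (replicates A and B at passage 6, replicate P4 at passage 4). The cells are 1 immortalised line and each siRNA is 1 reagent. A control siRNA without EGF was not analysed here, so at passage 6 the siRNA and the medium differ together.

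Integrins are surface receptors made of 1 alpha and 1 beta subunit, and the pair decides what the cell can hold on to. In stratified and mammary epithelium ITGA3 and ITGA6 pair with ITGB1 to bind laminins of the basement membrane, and ITGA6 pairs with ITGB4 in hemidesmosomes, the junctions that anchor keratins to that membrane. ITGA2 and ITGA10 pair with ITGB1 as collagen receptors, and ITGA5 with ITGB1 is the classical fibronectin receptor. ITGAV pairs with several beta subunits, among them ITGB6 and ITGB8, whose heterodimers bind latent TGF-beta. ITGB6 is known as an epithelial subunit that is low in resting epithelium and raised in wounds.

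Values are log2 expression on the authors' normalised scale, so the depth behind each value is unknown and levels are compared between libraries and not between genes. BRCA2 itself was at 11.15 and 10.89 in BRCA2 siRNA without EGF (A, B), 10.88 in the passage 4 library labelled BRCA2 siRNA with EGF, and 11.25, 11.24 and 10.19 in the controls (A, B, P4). The value labelled as knockdown thus stood above its own control at passage 4, and directions that rest on either passage 4 library hold by label only. At passage 6 BRCA2 differed by -0.23 ± 0.11 and did not pass (standard error, adjusted p = 0.23, limma). Against all controls it differed by 0.12 ± 0.35 (adjusted p = 0.881, limma). The siRNA groups are therefore named by label at passage 6 too. Controls A and B were closer to each other (SD of their differences over tested genes 0.119) than replicates A and B without EGF (0.308), and the labels do not say that replicates were separate cultures, so p-values measure a spread that may be partly technical. Of the basal markers KRT5 and KRT14 were at 16.56 or higher in every library, and of the 4 epithelial markers KRT8, KRT18 and CDH1 passed the filter, while EPCAM lay between -0.18 and 0.09. The endothelial marker CDH5 was listed at 0 in every library, as were 2 of 5 haematopoietic markers, and 0 of those 5 passed the filter. Another endothelial marker, KDR, ran from 8.04 to 10.07 and passed the filter, as did TEK, and PECAM1 was matched by no row.

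The alpha-v gene and the genes of 2 of its beta partners were higher in cells without EGF. ITGB6 was 3.48-fold higher, ITGB8 2.63-fold and ITGAV 1.57-fold in BRCA2 siRNA without EGF than in control siRNA with EGF at passage 6 (n = 2 each). The collagen receptor genes ITGA2 and ITGA10 were lower, by 0.95 and 0.61 on the log2 scale. The laminin receptor genes ITGA3, ITGA6 and ITGB4, the shared partner ITGB1 and the fibronectin receptor gene ITGA5 differed by 0.28 or less in either direction and did not pass the test. Of the 10 members, 3 were called higher and 2 lower at passage 6 (limma, Benjamini-Hochberg adjusted p below 0.05 over all tested genes), beside 3.56% and 2.88% of all tested genes. Their median difference was 0.19, beside -0.02 over all genes.

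**Figure D1:**
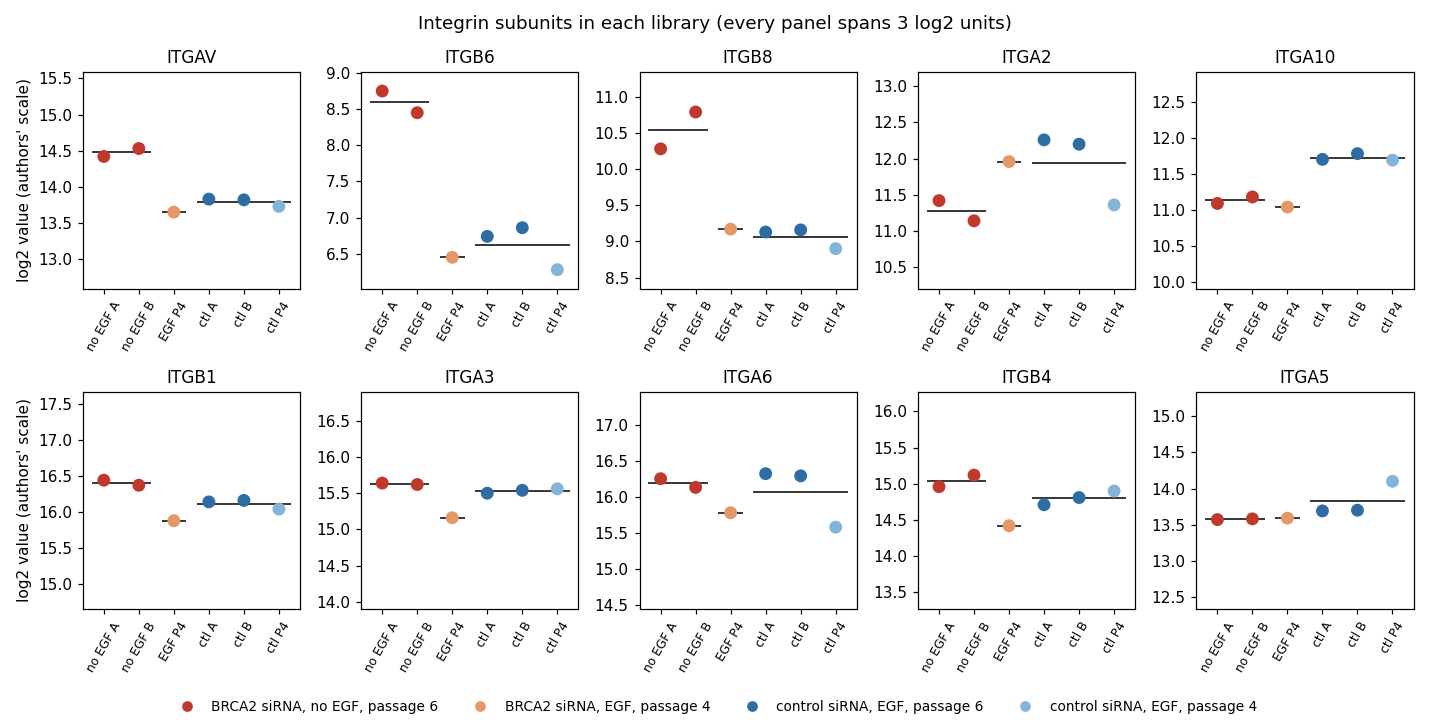
Log2 values of the 10 integrin subunits (vertical axes, each spanning 3 log2 units) in the 6 libraries (horizontal axes), with points coloured by siRNA, medium and passage and black lines at group means. ITGB6, ITGB8 and ITGAV stand highest in the 2 libraries without EGF, and ITGA10 is lower in all 3 BRCA2 siRNA libraries than in all 3 controls.

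ITGB6 (ENSG00000115221), the epithelial partner of ITGAV, had log2 values of 8.75 and 8.45 in BRCA2 siRNA without EGF, 6.45 in the passage 4 library labelled BRCA2 siRNA with EGF, and 6.74, 6.86 and 6.28 in controls A, B and P4. Both libraries without EGF lay above all 4 with EGF, with a gap of 1.59 between the nearest values, and the 4 with EGF, of either siRNA, lay between 6.28 and 6.86. The 2 passage 4 libraries also lay below the 4 of passage 6, by a gap of 0.29. ITGB6 averaged 8.60 ± 0.21 in BRCA2 siRNA without EGF (SD, n = 2) and 6.63 ± 0.31 in all controls (SD, n = 3). The difference from the passage 6 controls was 1.80 ± 0.14 (standard error, adjusted p = 0.0108, limma), and that from all 3 controls was 1.97 ± 0.22 (adjusted p = 0.028, limma).

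ITGB8 (ENSG00000105855), a beta subunit that pairs with ITGAV, had 10.28 and 10.79 in BRCA2 siRNA without EGF, 9.17 in the passage 4 library labelled BRCA2 siRNA with EGF, and 9.13, 9.16 and 8.90 in controls A, B and P4. The libraries without EGF were again both above the rest, with a gap of 1.11, but here replicate B was the higher of the pair and for ITGB6 replicate A was. The difference at passage 6 was 1.39 ± 0.18 (standard error, adjusted p = 0.0263, limma), and against all controls 1.48 ± 0.19 (adjusted p = 0.038, limma).

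ITGAV (ENSG00000138448), their shared alpha subunit, had 14.42 and 14.53 in BRCA2 siRNA without EGF, 13.65 in the passage 4 library labelled BRCA2 siRNA with EGF, and 13.83, 13.82 and 13.73 in controls A, B and P4. Its libraries without EGF did not overlap the others either, at a gap of 0.59. The rise of 0.65 ± 0.08 at passage 6 passed (standard error, adjusted p = 0.0213, limma). Against all 3 controls the difference was 0.68 ± 0.12 and did not pass (adjusted p = 0.081, limma), so there 2 of 10 members were called higher (ITGB6 and ITGB8) and 0 lower, beside 0.853% and 0.135% of all tested genes.

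ITGB5 and ITGB3, also partners of ITGAV, did not pass at passage 6. ITGB5, which with ITGAV binds vitronectin, had 12.20 and 11.85 without EGF and 12.40, 12.51 and 11.99 in controls A, B and P4, a difference at passage 6 of -0.43 ± 0.14 (adjusted p = 0.117, limma). ITGB3 was low in every library, at 4.07 and 4.23 without EGF, 4.67 in the passage 4 library labelled BRCA2 siRNA with EGF and 3.84, 3.85 and 4.98 in the controls. At passage 6 ITGB3 differed by 0.30 ± 0.12, in the direction of ITGB6 and ITGB8 (adjusted p = 0.163, limma). Its highest values were those of the passage 4 libraries, whatever their siRNA. No difference between partners was tested.

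The starts of 4 of the 5 members called at passage 6 are shown so that the alpha-v beta subunits can be set beside the collagen receptor alphas; ITGAV, which has 2 starts in the table, is not printed. Each stretch runs from 250 bases before to 50 bases after the start given by RefSeq (GRCh38.p14, another build than the hg19 named for the data), 5′ to 3′ on the gene's strand, and capitals mark GGGCGG, the core of a GC box, or its reverse complement. ITGB6 lies at chr2:160200223-160200522 (minus strand), ITGB8 at chr7:20330650-20330949 (plus), ITGA2 at chr5:52989102-52989401 (plus) and ITGA10 at chr1:145910001-145910300 (minus).
ITGB6: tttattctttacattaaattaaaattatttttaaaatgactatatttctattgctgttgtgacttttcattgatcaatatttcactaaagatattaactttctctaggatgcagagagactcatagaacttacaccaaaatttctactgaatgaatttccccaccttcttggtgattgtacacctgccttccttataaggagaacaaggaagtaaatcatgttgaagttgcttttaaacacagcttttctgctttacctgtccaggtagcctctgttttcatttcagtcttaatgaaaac
ITGB8: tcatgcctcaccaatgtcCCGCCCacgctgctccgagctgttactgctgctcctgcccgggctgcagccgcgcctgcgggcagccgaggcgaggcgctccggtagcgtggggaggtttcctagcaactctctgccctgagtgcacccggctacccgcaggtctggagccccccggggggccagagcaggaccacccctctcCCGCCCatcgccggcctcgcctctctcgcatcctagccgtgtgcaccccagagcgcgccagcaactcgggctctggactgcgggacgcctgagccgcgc
ITGA2: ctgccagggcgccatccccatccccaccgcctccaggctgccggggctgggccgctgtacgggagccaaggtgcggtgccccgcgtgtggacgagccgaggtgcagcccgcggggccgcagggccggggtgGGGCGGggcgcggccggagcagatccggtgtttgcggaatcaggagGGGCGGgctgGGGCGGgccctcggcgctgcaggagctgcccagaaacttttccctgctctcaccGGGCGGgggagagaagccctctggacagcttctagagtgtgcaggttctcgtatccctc
ITGA10: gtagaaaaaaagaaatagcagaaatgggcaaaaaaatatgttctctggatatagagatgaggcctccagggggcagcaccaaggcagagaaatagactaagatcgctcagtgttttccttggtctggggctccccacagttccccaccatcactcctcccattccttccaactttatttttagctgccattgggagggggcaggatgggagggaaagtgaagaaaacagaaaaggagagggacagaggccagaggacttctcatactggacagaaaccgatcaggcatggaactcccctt

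The starts of ITGB6 and ITGB8 have little in common. That of ITGB6 has 31.7% G and C and holds no GGGCGG on either strand, whereas that of ITGB8 has 71.7% and holds 2, beside a median of 58.3% over 27305 promoters, of which 44.6% hold at least 1. The same contrast is seen between the collagen receptor genes, with 72.7% and 4 copies at ITGA2 and 48.7% and 0 copies at ITGA10. The AP-1 letters TGANTCA, searched on both strands, were found in none of these 4 stretches. Promoters of 8 members were in the table (not ITGA3 or ITGB4), and only ITGA5 held TGANTCA, which 7.8% of all promoters hold. A missing match says only that these letters are not in this window.

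Among the collagen receptor genes, ITGA2 (ENSG00000164171), the alpha subunit of the main epithelial collagen receptor, had 11.42 and 11.14 in BRCA2 siRNA without EGF, 11.96 in the passage 4 library labelled BRCA2 siRNA with EGF, and 12.26, 12.20 and 11.36 in controls A, B and P4. The 2 libraries without EGF were below the passage 6 controls, but the passage 4 control lay between them. ITGA2 fell by 0.95 ± 0.12 at passage 6 (standard error, adjusted p = 0.0238, limma). Against all 3 controls the difference was -0.66 ± 0.30 and did not pass (adjusted p = 0.328, limma).

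ITGA10 (ENSG00000143127), a collagen receptor alpha known mainly from cartilage, differed by siRNA label. It had 11.09 and 11.18 in BRCA2 siRNA without EGF, 11.04 in the passage 4 library labelled BRCA2 siRNA with EGF, and 11.70, 11.78 and 11.69 in controls A, B and P4. All 3 BRCA2 siRNA libraries lay below all 3 controls, with a gap of 0.50, and within each siRNA the values spanned 0.14 or less. The share of all genes that separate so was not counted. Within the BRCA2 siRNA, medium and passage differ together, and no cause was tested. ITGA10 fell by 0.61 ± 0.08 at passage 6 (standard error, adjusted p = 0.0257, limma). At passage 4, against a different control library, the difference was -0.65 ± 0.11 and did not pass (adjusted p = 0.122, limma, unadjusted p = 0.00252). Within the BRCA2 siRNA, cells without EGF and the library labelled as having EGF differed by 0.10 ± 0.10 (adjusted p = 0.504, limma).

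**Figure D2:**
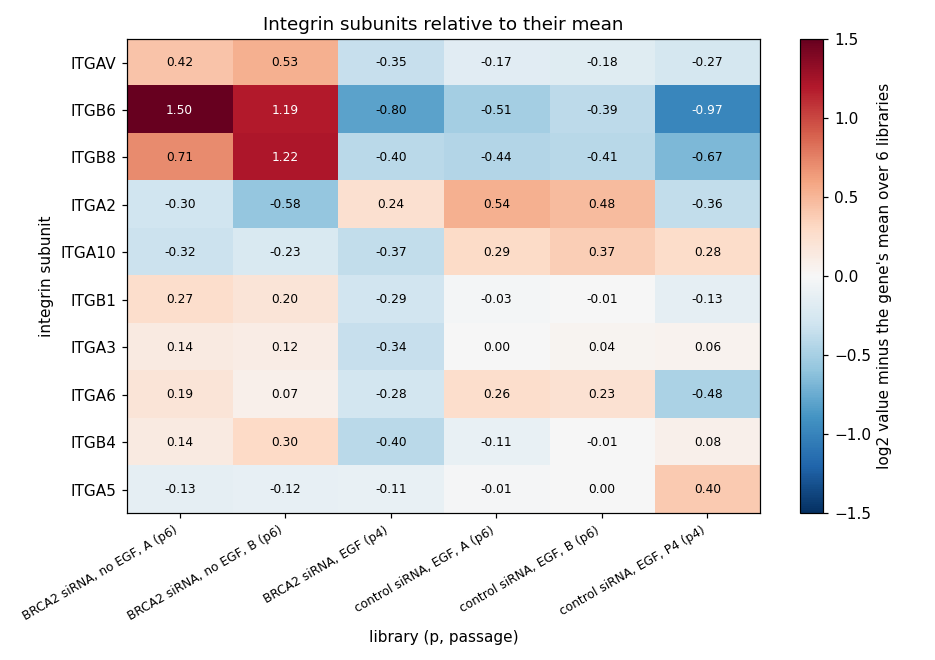
Log2 value of each integrin subunit (rows) minus its mean over the 6 libraries, in each library (columns, with passage as p4 or p6), red for above and blue for below the mean. ITGB6, ITGB8 and ITGAV separate the 2 libraries without EGF from the rest by the widest gaps. Among the members ITGA10 has the widest gap between the siRNAs (0.50) and ITGA6 between the passages (0.35). By smaller gaps ITGB6 (0.29), ITGB1 (0.10) and ITGAV (0.09) also separate the passages, and ITGA5 (0.10) and ITGB8 (0.01) the siRNAs. ITGB1, ITGB4, ITGA3 and ITGA5 also separate the media, by 0.21 or less. The share of all genes that separate so was not counted.

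The laminin receptor genes moved little between the passage 6 groups. ITGA6 (ENSG00000091409), the alpha subunit of hemidesmosomes, had 16.25 and 16.13 in BRCA2 siRNA without EGF, 15.78 in the passage 4 library labelled BRCA2 siRNA with EGF, and 16.32, 16.29 and 15.58 in controls A, B and P4. Both passage 4 libraries lay below all 4 passage 6 libraries, whatever the siRNA or medium, with a gap of 0.35. ITGA6 was higher in the controls at passage 6 than in the control at passage 4 by 0.72 ± 0.09 (standard error, adjusted p = 0.0235, limma), and at passage 6 the difference without EGF was -0.11 ± 0.08 (adjusted p = 0.37, limma). Against all controls it was 0.13 ± 0.26, and its sign there turned to -0.11 without the passage 4 control.

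ITGB4 (ENSG00000132470), the beta subunit of hemidesmosomes, had 14.96 and 15.12 in BRCA2 siRNA without EGF, 14.42 in the passage 4 library labelled BRCA2 siRNA with EGF, and 14.71, 14.81 and 14.90 in controls A, B and P4. ITGA3 (ENSG00000005884), a laminin receptor alpha, had 15.64 and 15.62 without EGF, 15.16 in the passage 4 library labelled BRCA2 siRNA with EGF, and 15.50, 15.54 and 15.56 in the controls. For both genes the libraries without EGF were highest, by gaps of 0.06 for ITGB4 and 0.07 for ITGA3, and the passage 4 library labelled BRCA2 siRNA with EGF stood below the other 5. At passage 6 the differences were 0.28 ± 0.09 for ITGB4 and 0.11 ± 0.07 for ITGA3 (adjusted p = 0.121 and 0.305, limma).

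ITGB1 (ENSG00000150093), the common beta subunit of the collagen, laminin and fibronectin receptors, had 16.44 and 16.37 in BRCA2 siRNA without EGF, 15.88 in the passage 4 library labelled BRCA2 siRNA with EGF, and 16.14, 16.16 and 16.04 in controls A, B and P4. The libraries without EGF were again highest, by a gap of 0.21, and the BRCA2 siRNA library with EGF lowest, with a difference at passage 6 of 0.26 ± 0.07 (adjusted p = 0.0884, limma). A pseudogene of it, ITGB1P1, had its own row, at 11.15 and 11.07 without EGF and 10.82, 10.86 and 10.83 in the controls, and its difference at passage 6 was 0.27. Reads could be split between gene and pseudogene, so ITGB1 is uncertain to that extent. ITGA5 (ENSG00000161638), the fibronectin receptor alpha, had 13.57 and 13.58 without EGF, 13.59 in the passage 4 library labelled BRCA2 siRNA with EGF, and 13.69, 13.70 and 14.10 in controls A, B and P4. Its passage 4 control stood above the other 5 libraries, and the 3 BRCA2 siRNA libraries lay below the 3 controls by a gap of 0.10. Antisense or divergent genes whose exons overlap those of members in GENCODE 29 had values between -1.98 and 6.39. A processed transcript on the same strand as ITGB6, AC092153.1, overlaps its exons and had no row. How reads from it were counted is therefore unknown.

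Within the BRCA2 siRNA, cells without EGF at passage 6 (n = 2) were set against the library labelled as having EGF at passage 4 (n = 1), so medium and passage differ together. ITGB6 was 4.44-fold, ITGB8 2.58-fold and ITGAV 1.78-fold higher without EGF, the same libraries without EGF being used as against the passage 6 controls. ITGB4 (0.62 ± 0.11), ITGB1 (0.52 ± 0.08) and ITGA3 (0.48 ± 0.08) were also higher and ITGA2 was lower (-0.68 ± 0.14). In all 6 of 10 members were called higher and 1 lower, with adjusted p from 0.0141 to 0.0441 (limma), beside 7.41% and 8.89% of all tested genes. The median over the members was 0.50, beside -0.02 over all genes. With passage left out of the fit 0 members were called, and 30 genes in all.

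At passage 4 the single library labelled BRCA2 siRNA with EGF was set against the control with EGF (1 library each, with the spread taken from the passage 6 replicates). No member passed, nor did any other gene (0% of tested genes, 3436 genes at an unadjusted p under 0.05). The differences for ITGB6 (0.17 ± 0.19), ITGB8 (0.27 ± 0.26) and ITGAV (-0.08 ± 0.11) were about the size of their standard errors. The largest were those of ITGA10, ITGA2 (0.60 ± 0.17), ITGA5 (-0.51 ± 0.10), ITGB4 (-0.48 ± 0.13) and ITGA3 (-0.40 ± 0.10), with adjusted p from 0.122 to 0.158. ITGA6 was at 0.20 ± 0.11 and ITGB1 at -0.16 ± 0.10.

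Between the controls, passage 6 (n = 2) was set against passage 4 (n = 1). ITGA2 (0.86 ± 0.14) and ITGA6 (0.72 ± 0.09) were higher and ITGA5 was lower (-0.41 ± 0.08) at passage 6, with adjusted p of 0.0285, 0.0235 and 0.0385 (limma). That is 2 of 10 members higher and 1 lower, beside 7.71% and 12.4% of all tested genes. ITGB6 was at 0.52 ± 0.17 (adjusted p = 0.0862), ITGB8 at 0.25 ± 0.22 and ITGAV at 0.10 ± 0.09. This comparison and that of cells without EGF at passage 6 share controls A and B, and their values are given side by side only.

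**Figure D3:**
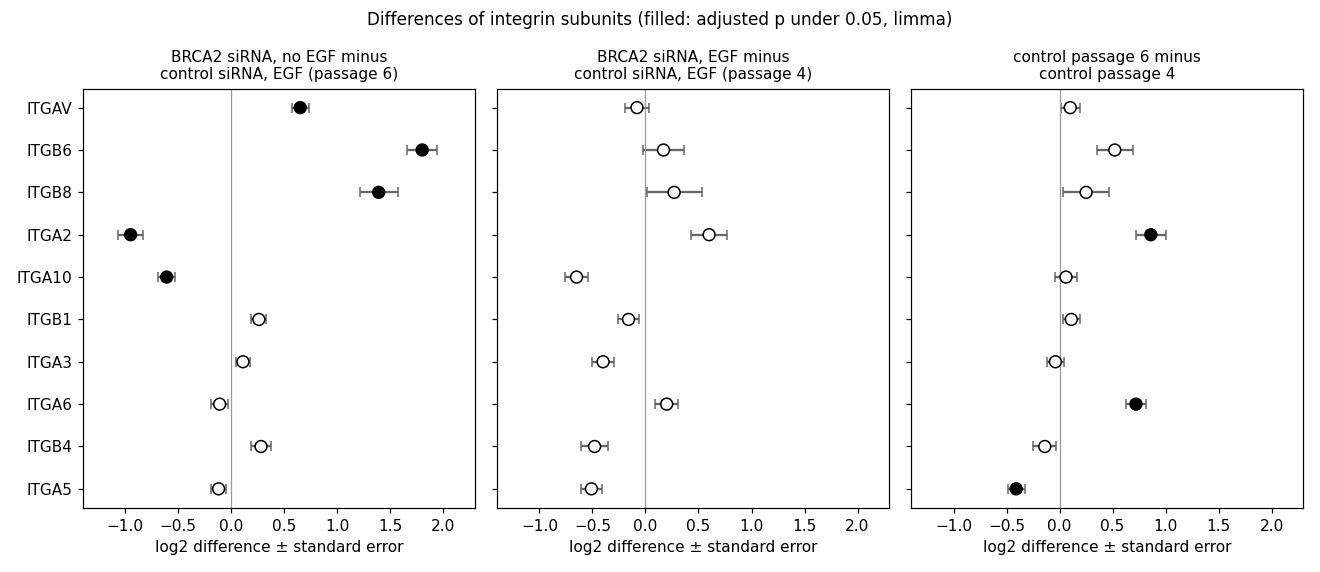
Log2 differences of the 10 integrin subunits (horizontal axes, bars are standard errors) in BRCA2 siRNA without EGF minus control siRNA with EGF at passage 6, in BRCA2 siRNA with EGF minus control siRNA with EGF at passage 4, and in control passage 6 minus control passage 4, with filled points for adjusted p under 0.05 (limma). ITGB6 (1.80) and ITGB8 (1.39) lead the first panel, no point is filled in the second, and ITGA2, ITGA6 and ITGA5 are filled in the third.

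The calls rest on few libraries and on the filter, without which 0 members were called in any comparison. At passage 6 the 5 member calls became 0 without control A or without control B, or with both averaged into 1 library, and were 6 higher and 4 lower without replicate A and 6 higher and 3 lower without replicate B of the cells without EGF. Of the calls within the BRCA2 siRNA, ITGB6 alone was left without control A or control B, and of those between control passages none was. Without either replicate without EGF, the spread of the fits by group and passage rested on controls A and B alone. More members were called there, at passage 6 and at passage 4, but so were many more of all tested genes. Those calls are therefore not read as results about the members. Against all controls both calls were lost without either replicate without EGF or without control A or B. Without the passage 4 control 3 members were called higher and 2 lower, beside 526 and 425 of all 14763 tested genes. The difference of ITGB6 at passage 6 ran from 1.65 to 1.95 over 14 alternatives, that of ITGB8 from 1.14 to 1.65, that of ITGAV from 0.59 to 0.71, that of ITGA2 from -1.09 to -0.80 and that of ITGA10 from -0.65 to -0.52, though several alternatives cannot change a difference.

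Of the other 16 integrin subunit genes, 8 passed the filter and 0 were called in either direction at passage 6 (limma). Of all tested genes 3.56% were called higher and 2.88% lower. The median difference of the 8 was 0.03, beside -0.02 over all genes. ITGA1, another collagen receptor alpha, was at 0.20 ± 0.09 and ITGAE, an alpha subunit known from intraepithelial lymphocytes, at -0.25 ± 0.15. Of the 8 below the filter ITGAL and ITGAD, both leukocyte subunits, were listed at 0 in every library.

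Several ligands of these receptors were higher in BRCA2 siRNA without EGF at passage 6. Of 12 interstitial and basement membrane collagen genes 11 were tested, 7 were called higher and 1 lower (COL6A3, -0.67), beside 3.56% and 2.88% of all tested genes, with a median of 0.63 beside -0.02 over all genes. COL5A2, a fibrillar collagen, had 12.43 and 12.80 without EGF, 11.02 in the passage 4 library labelled BRCA2 siRNA with EGF, and 11.07, 11.16 and 10.92 in the controls, and rose by 1.50 ± 0.14 (adjusted p = 0.0157, limma). COL3A1 rose by 1.75 ± 0.18 and COL1A1 by 1.69 ± 0.10, while COL1A2, whose product joins that of COL1A1 in type I collagen, stayed between 2.43 and 2.76 and below the filter. Against all controls 3 of the 11 collagen genes were called higher and 0 lower, beside 0.853% and 0.135% of all tested genes.

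Of 11 laminin chains 9 were tested, 3 were called higher and 0 lower at passage 6, beside 3.56% and 2.88% of all tested genes. Their median was 0.36, beside -0.02 over all genes. LAMA1 rose by 0.83 ± 0.08, LAMB2 by 0.81 ± 0.10 and LAMA5 by 0.42 ± 0.07, and LAMA3, the alpha chain of the main epidermal laminin, was at 0.72 ± 0.15 (adjusted p = 0.0585, limma). Of the 4 hemidesmosome partners of ITGB4, 2 were called higher and 0 lower, the transmembrane collagen COL17A1 (0.66 ± 0.08) and the linker DST (0.61 ± 0.09). PLEC was at -0.03 ± 0.07 and CD151 at 0.17 ± 0.09, and neither passed. The values of COL17A1 without EGF, 16.24 and 16.36, were above those of the other 4 libraries, which ran from 15.56 to 15.65. Those of DST without EGF were also the highest. Against all controls 0 of the 4 hemidesmosome partners were called.

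Of 14 fibronectin and alpha-v ligand genes 12 were tested, 2 were called higher and 0 lower at passage 6, beside 3.56% and 2.88% of all tested genes. Their median was 0.31, beside -0.02 over all genes. NPNT, which encodes nephronectin, a matrix ligand of the ITGA8 receptor, had 5.97 and 5.58 without EGF, 3.13 in the passage 4 library labelled BRCA2 siRNA with EGF, and 3.31, 3.43 and 3.16 in the controls, and rose by 2.41 ± 0.17 (adjusted p = 0.00875, limma). ITGA8 itself lay between -1.98 and -1.95 in every library. The matrix glycoprotein TNC rose by 1.10 ± 0.10. TGFB1, whose latent protein the ITGB6 and ITGB8 receptors bind, was at -0.04 ± 0.10, and TGFB2 at 1.62 ± 0.33 (adjusted p = 0.0589, limma). TGFB2 had 11.91 in the passage 4 control, between the 11.81 and 12.78 without EGF.

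Adapters are proteins that couple integrins to actin. Of 30 adapter genes 26 were tested, 2 rose and 1 fell at passage 6, which is near the 3.56% and 2.88% of all tested genes, with a median of -0.09. TLN2, a talin, rose by 0.79 ± 0.09 and TNS1, a tensin, by 1.10 ± 0.16, and the epithelial kindlin FERMT1 fell by 0.55 ± 0.10 (adjusted p = 0.0199, 0.0326 and 0.0474, limma). TLN2 had 8.97 and 9.05 without EGF but 9.39 in the passage 4 control. Against all controls it differed by 0.40 ± 0.38 and did not pass (adjusted p = 0.621, limma). FERMT1 had 11.35 and 11.14 without EGF against 11.79 in both passage 6 controls and 11.24 in the passage 4 control. Of 6 tetraspanin partners 0 were called, with CD151 at 0.17 ± 0.09 and CD82 at 0.15 ± 0.08.

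**Figure D4:**
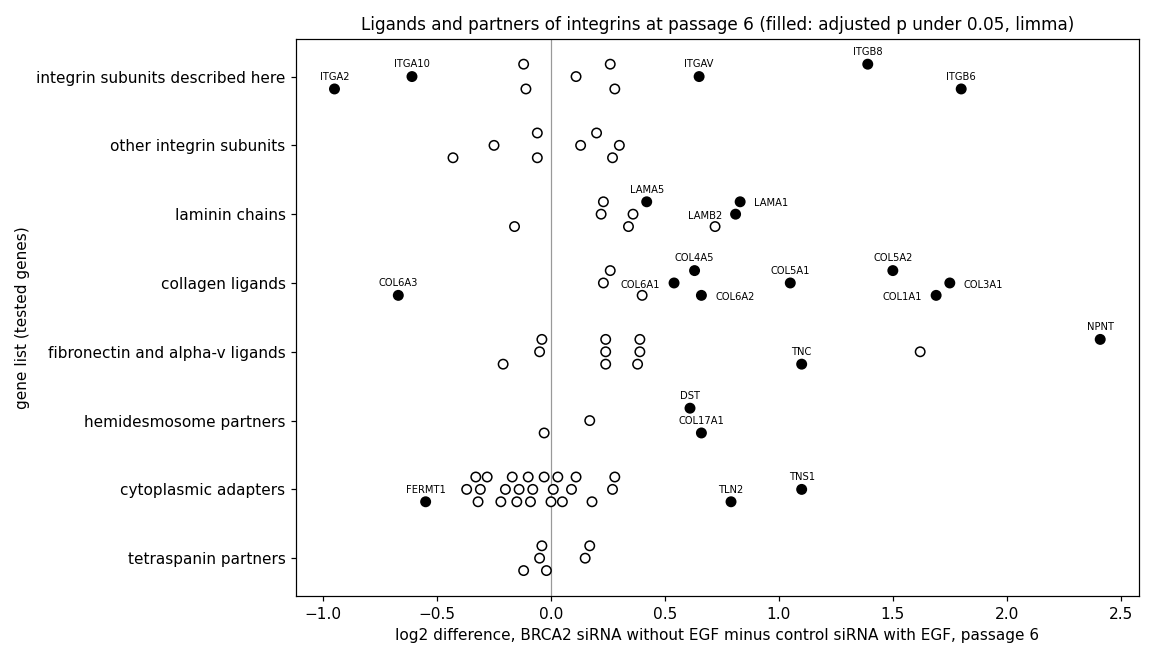
Log2 differences of tested genes at passage 6 (horizontal axis, BRCA2 siRNA without EGF minus control siRNA with EGF) for the 10 integrin subunits and 7 lists of related genes (rows), each point a gene, filled and named where the adjusted p is under 0.05 (limma). Collagen ligands hold 8 filled points of 11, and the other integrin subunits hold 0 of 8. Of all tested genes 3.56% were called higher and 2.88% lower.

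Some markers of other cell types also differed at passage 6. Of 10 fibroblast markers 8 were tested and 5 were called higher and 0 lower at passage 6, beside 3.56% and 2.88% of all tested genes. The summed linear level of the fibroblast markers was 6910 and 7090 in BRCA2 siRNA without EGF, 4370 in the passage 4 library labelled BRCA2 siRNA with EGF, and 2250, 2620 and 2450 in the controls. COL1A1, COL3A1, DCN, FAP and DPT were the 5. DCN and LUM were highest in the passage 4 library labelled BRCA2 siRNA with EGF, at 10.11 and 8.82, where ITGB6, ITGB8 and ITGAV were near their control values, and within the BRCA2 siRNA DCN was lower without EGF (-1.04, adjusted p = 0.0159, limma). PDGFRB, THY1 and LUM did not pass at passage 6, and PDGFRA and COL1A2 were below 3.50 in every library. The summed level of 4 basal epithelial markers was also highest without EGF, at 461000 and 389000, against 224000 in the passage 4 library labelled BRCA2 siRNA with EGF and 240000 to 250000 in the controls. Of the epithelial markers CDH1, the cadherin of epithelial junctions, had 9.78 and 9.79 without EGF, 7.14 in the passage 4 library labelled BRCA2 siRNA with EGF, and 7.60, 7.42 and 7.59 in controls A, B and P4. CDH1 rose by 2.27 ± 0.10 at passage 6 (adjusted p = 0.00753, limma), KRT18 fell by 0.85 ± 0.08 (adjusted p = 0.0162, limma), and KRT8 was at 0.01 ± 0.09. Of 5 endothelial markers 2 were tested and 1 was called higher, beside 3.56% of all tested genes. This was KDR (1.23 ± 0.16), which was highest in the passage 4 control, at 10.07. The summed level of the endothelial markers was 592 and 781 without EGF, 373 in the passage 4 library labelled BRCA2 siRNA with EGF, and 285, 313 and 1100 in controls A, B and P4. The part of any of these in the integrin differences was not tested, and in bulk RNA fewer cells of a type and less RNA per cell cannot be told apart.

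Among the 5 genes with the pattern closest to ITGB6 over the 6 libraries, of 11817 with a mean of at least 50, were TIMP3, S1PR5, F2RL2 and HR. Closeness is the root mean square distance of values centred on each gene's mean, which was 0.11 for TIMP3, an inhibitor of metalloproteases, and 0.19 for HR. Closest to ITGB8 were CYP39A1, ARHGEF37, COL5A2, SLC2A12 and ADGRL3, at distances from 0.06 to 0.13. Both lists are descriptions over the same 6 libraries. ITGB8 and ITGB6 were at a distance of 0.38 from each other. Relative to their means they were alike in replicate B without EGF (1.22 for ITGB8, 1.19 for ITGB6) and apart in replicate A (0.71 for ITGB8, 1.50 for ITGB6). The TIMP3 values were 11.59 and 11.25 without EGF, 8.98 in the passage 4 library labelled BRCA2 siRNA with EGF, and 9.55, 9.54 and 9.03 in the controls. That TIMP3 and ITGB6 share the order of replicates A and B is favoured by the choice by closeness.

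**Figure D5:**
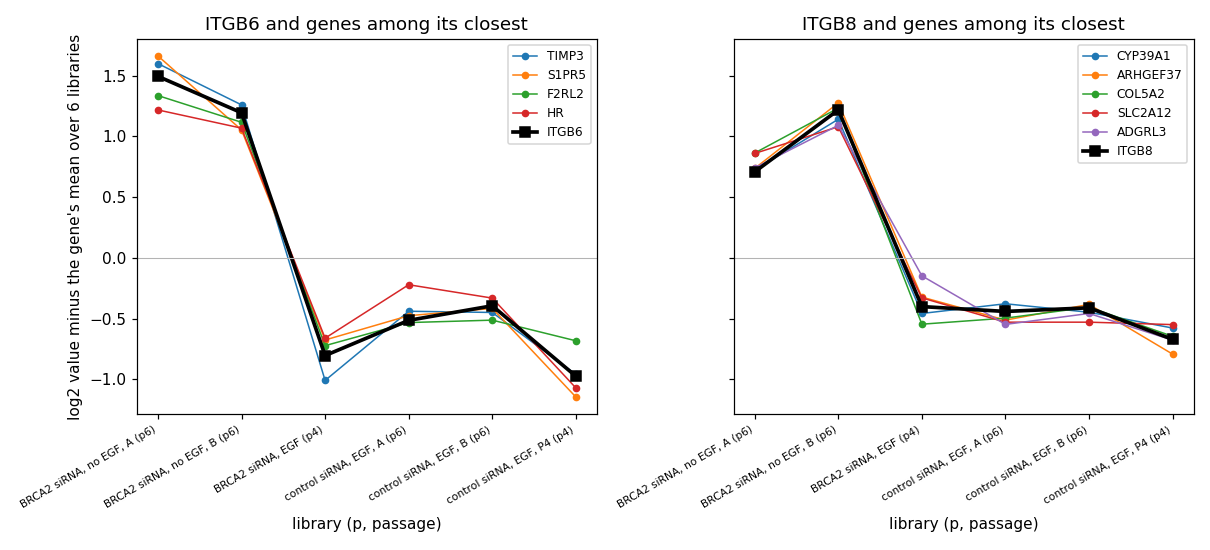
Log2 values minus each gene's mean over the 6 libraries (vertical axis) by library (horizontal axis) for ITGB6 (left) and ITGB8 (right) in black and the named genes among the closest of each in colour, with lines joining the values of a gene. Every gene shown is highest in the 2 libraries without EGF, replicate A being the higher for ITGB6 and its neighbours and replicate B for ITGB8 and its neighbours. The neighbours were picked by closeness over these same libraries, which favours a shared order.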

How the data were processed

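Libraries were made with a ScriptSeq kit from mRNA isolated on beads, per the labels' protocols. The submitters' processing notes name TopHat2 2.0.11, DESeq2 and hg19. How reads were counted, whether strand was used, and which annotation and log transformation were applied is not given in the sources used here. What the authors deposited is 1 table of normalised log2 values, from -1.98 to 19.93, in which 25986 rows are 0 in all 6 libraries and 0 rows in some only. A transformation that shrinks low values would understate their differences. Depth is unknown, so no count model or counting interval was used.

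Each column was assigned by its name in the labels, with 0 left over, and symbols by Ensembl identifier (137 of 138 list genes). Genes whose linear values (2 to the power of the log2 value) averaged at least 10 entered limma 3.58.1 in R 4.3.3 (trend, robust prior, two-sided, Benjamini-Hochberg over 14763 genes, threshold 0.05), checked on simulated data. Against all controls the fit had 3 levels by group (3 residual degrees of freedom), elsewhere 4 by group and passage (2). Replicate letters were not taken as pairs: with 2 pairs, the correlation of A minus B between the passage 6 groups was -0.172. The members and lists were chosen with earlier results of these data known. From each related list, genes are named that passed against all controls or else had the largest differences at passage 6 with a linear mean of at least 50; ITGB3, LAMA5, COL6A3, COL1A2, ITGA8, ITGAL, ITGAD, TNC, TGFB1, TGFB2, TNS1, ITGB1P1, the genes known to respond to TGF-beta and the marker genes were named after their values were seen. CD63, which that rule also picks, was at -0.12. A few genes that the rules pick are not reported here. Alternatives were other filters, quantile normalisation, another prior, controls A and B averaged, a replicate block, passage ignored, passage 6 fitted alone and each library left out.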

Additional observations from a re-analysis of the deposited data

How the results depend on the processing

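Calls over all tested genes depended on the fit far more than the differences did. Against all controls 146 genes were called, 87 with no filter, 94 at a mean of at least 50, 37 with controls A and B averaged, 6 with a replicate block and 0 to 951 with a library left out. At passage 6 the count was 950, 76 with no filter, 46 with A and B averaged and 42 to 8964 with a library left out. Within the BRCA2 siRNA it was 2406, 0 with no filter (7066 genes at an unadjusted p under 0.05, limma), 203 with A and B averaged, 937 with a replicate block, 30 with passage ignored and 203 to 9215 with a library left out. At passage 4 it was 0, 67 with a replicate block and 0 to 7651 with a library left out. Between control passages it was 2963, 0 with no filter or with A and B averaged (7341 and 2770 genes at an unadjusted p under 0.05) and 0 to 9849 with a library left out. In the comparisons fitted by group and passage the highest counts came without 1 of the replicates without EGF, where the spread rests on controls A and B alone; against all controls the highest came without the passage 4 control. A replicate block left 0 member calls against all controls, the 5 at passage 6, 3 of 7 within the BRCA2 siRNA (ITGAV, ITGB6 and ITGB8) and 2 of 3 between control passages (ITGA5 lost, adjusted p = 0.103, limma). With the letters crossed as a block, chosen after seeing the data, the counts at passage 6 and passage 4 were 1795 and 228.

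Of the values of members under alternatives, 500 kept their direction and side of the threshold, 89 lost the call, 44 gained one and 7 changed sign. Quantile normalisation turned ITGA5 to 0 at passage 6 and to 0.09 within the BRCA2 siRNA, ITGAV to 0.01 at passage 4 and ITGA3 to 0.09 between control passages. Ignoring passage turned ITGA6 to -0.28 and ITGB6 to -0.18 in the passage 4 library labelled BRCA2 siRNA with EGF against controls. ITGA6 against all controls ran from -0.11 to 0.26 with a library left out. No member with a call changed sign.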

Other observations

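Of 12 genes known to respond to TGF-beta, whose latent form the ITGB6 and ITGB8 receptors bind, 4 were higher and 2 lower in BRCA2 siRNA without EGF than in control siRNA with EGF at passage 6 (limma, adjusted p below 0.05), beside 3.56% and 2.88% of all tested genes, with a median difference of 0.28 beside -0.02 over all tested genes. TGFBI rose by 1.45, COL1A1 by 1.69, ID2 by 1.59 and ID3 by 0.78, and ID1 fell by 0.78 and BHLHE40 by 0.93. SMAD7, an inhibitory SMAD, was at 0.59 and CCN2 at -0.05, and neither passed. No relation between these genes and the integrin subunits was tested.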
